A study of Arabidopsis thaliana with 4 samples.

Results

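The 10 genes described here encode Arabidopsis zinc finger proteins of the ZAT and AZF groups, namely ZAT5, ZAT6, ZAT7, ZAT8, ZAT10, ZAT11, ZAT12, ZAT18, AZF1 and AZF2. They were chosen by locus, in that order AT2G28200, AT5G04340, AT3G46090, AT3G46080, AT1G27730, AT2G37430, AT5G59820, AT3G53600, AT5G67450 and AT3G19580, and all 10 have a row among the 24904 loci of the deposited count table. RefSeq lists ZAT10 as STZ, ZAT12 as RHL41, AZF1 as ZF1 and AZF2 as ZF2, and gives no symbol for the loci called ZAT5, ZAT8 and ZAT18 here. Poly(A) RNA was sequenced from leaves and from leaf protoplasts of wild-type Col-0 plants aged 6 weeks. The plants were grown in 8 h of light, at 60 µmol of photosynthetically active radiation, and 16 h of dark. Both groups have 2 libraries, called replicates in the labels without separate plants or days being named, so the p-values reflect no more than library-to-library spread, part or all of which may be technical. For the protoplasts, the lower epidermis was torn off with tape, the leaf was cut beside the main vein, and the tissue was shaken for 2 h in 1% cellulase and 0.3% macerozyme with 0.6 M mannitol, then sieved and washed. The leaf RNA came from leaves that were not turned into protoplasts, and whether those leaves were also peeled and cut is not told, since the labels give the same protocol text for both groups. The comparison therefore covers digestion, osmoticum and washing, and perhaps peeling and cutting, together with the loss of cells that were not released.

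Zinc finger proteins of this kind carry paired Cys2-His2 fingers, each with the plant-specific motif QALGGH in the part that reads DNA, and most end in a short EAR motif that recruits corepressors such as TOPLESS. Many of them act as transcriptional repressors, and their genes are known for fast induction by wounding, cold, salt, intense light and hydrogen peroxide. In leaves, ZAT12 and ZAT10 are best known for their place in oxidative and photooxidative stress responses.

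The fingers show what the 10 proteins share. In the RefSeq annotation of TAIR10.1, each gene is a single exon with no other annotated gene overlapping it, and each coding sequence holds 2 QALGGH motifs within canonical fingers. The 63 bases that code for the first finger, from its first cysteine to its last histidine, are given for each gene, with the codons of QALGGH in capitals.
ZAT12 (chr5:24103193-24103255, plus strand): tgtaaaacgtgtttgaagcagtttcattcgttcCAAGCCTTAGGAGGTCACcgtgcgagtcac
ZAT18 (chr3:19875682-19875744, plus strand): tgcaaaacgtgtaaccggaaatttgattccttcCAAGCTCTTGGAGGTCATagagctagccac
ZAT10 (chr1:9648680-9648742, minus strand): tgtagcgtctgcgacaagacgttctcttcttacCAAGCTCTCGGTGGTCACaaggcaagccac
ZAT6 (chr5:1216705-1216767, minus strand): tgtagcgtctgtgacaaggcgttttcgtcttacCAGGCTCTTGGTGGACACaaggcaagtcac
ZAT11 (chr2:15706598-15706660, plus strand): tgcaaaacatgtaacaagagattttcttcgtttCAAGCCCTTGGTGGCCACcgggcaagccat
ZAT7 (chr3:16926625-16926687, minus strand): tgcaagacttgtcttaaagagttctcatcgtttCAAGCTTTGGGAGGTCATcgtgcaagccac
ZAT8 (chr3:16923071-16923133, minus strand): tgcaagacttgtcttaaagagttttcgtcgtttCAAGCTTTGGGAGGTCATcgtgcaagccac
AZF1 (chr5:26919523-26919585, minus strand): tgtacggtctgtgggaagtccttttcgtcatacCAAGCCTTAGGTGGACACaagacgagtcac
AZF2 (chr3:6803731-6803793, minus strand): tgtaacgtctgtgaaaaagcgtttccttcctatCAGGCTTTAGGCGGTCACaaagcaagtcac
ZAT5 (chr2:12024669-12024731, plus strand): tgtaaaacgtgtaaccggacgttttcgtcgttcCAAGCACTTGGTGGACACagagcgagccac
The first fingers of ZAT7 and ZAT8 were identical at 61 of 63 bases, and those of ZAT6 and ZAT10 at 55. The fingers of ZAT18 and AZF1 were the least alike, with 33 identical bases. Over whole coding sequences, identity in the 45 pairs of genes ran from 38.5% to 88.2% of alignment columns with a median of 45.3%, and ZAT7 with ZAT8 was the highest.

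In the protoplast libraries, 9 of the 10 genes were higher than in leaf and 1, ZAT5, was lower (edgeR quasi-likelihood test, adjusted p under 0.05 over all genes tested). All 10 passed the filter on low counts. ZAT18, with 0 and 3 leaf counts, and ZAT11, with 11 and 3, would not have passed on their leaf counts alone. Such genes could hardly be called lower, and both count in the 9 called higher and in the 7 below. The leaf and protoplast libraries overlapped for none of the 10 genes. The share of all genes without overlap was not counted, and 7 of 8 reference genes did not overlap either. A lack of overlap therefore cannot be taken to set the 10 genes apart. The background is wide, since 39.8% of the 20200 genes tested were called higher and 40.7% lower. The size of the rise stands further out than its count, as 7 of the 10 genes were called higher with a log2 fold change of at least 3, and 10.6% of all genes tested were. The cut of 3 falls between AZF1 at 2.40 and ZAT6 at 4.55. The 10 genes were chosen with earlier results of these data known, so part of this contrast may follow from the choice. The median log2 fold change of the 10 genes was 4.92, against -0.04 for all genes tested. Together the 10 genes took 0.0164% and 0.0170% of all counts in the leaf libraries, and 0.267% and 0.263% in the protoplast libraries.

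**Figure D1:**
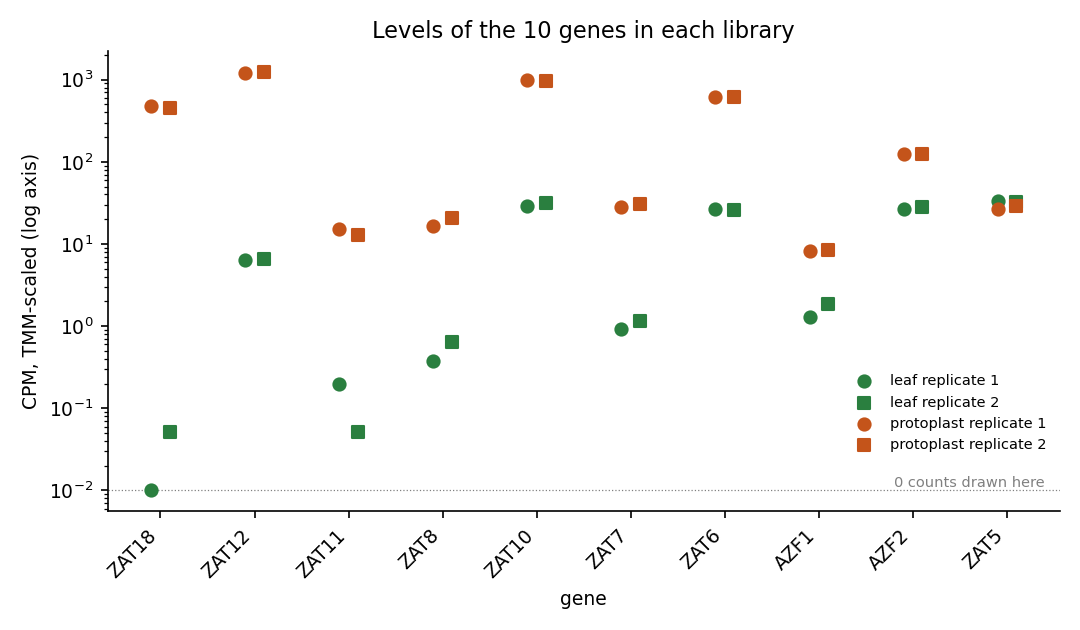
CPM (counts scaled to the TMM-adjusted library size, log axis) of each gene in each library, green for leaf and orange for protoplast, circles for replicate 1 and squares for replicate 2; the library with 0 counts of ZAT18 is drawn on the dotted line. The orange points lie above the green ones for 9 genes and below them for ZAT5.

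ZAT12, named RHL41 for its response to high light, is needed for the induction of the ascorbate peroxidase gene APX1 in oxidative stress. It had 356 and 383 counts in the leaf libraries and 44116 and 37352 in the protoplast libraries. Both protoplast libraries were far above both leaf libraries. On the scale of CPM, which are counts scaled to the TMM-adjusted library size, ZAT12 rose from 6.51 ± 0.18 to 1219.9 ± 40.3 (mean ± SD, n = 2). This is a 187-fold difference, with a log2 fold change of 7.55 ± 0.07 (SE; edgeR, adjusted p = 3.04e-16).

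ZAT10, also called STZ for salt tolerance zinc finger, is a repressor responsive to salt and to photooxidative stress. Its counts were 1596 and 1796 for leaf against 36500 and 29042 for protoplasts, with no overlap. It rose from 29.9 ± 1.8 to 978.2 ± 10.6 CPM (n = 2), with a log2 fold change of 5.03 ± 0.06 (SE; edgeR, adjusted p = 1.35e-15). ZAT6, a cold-induced relative of ZAT10 that also acts in phosphate and cadmium responses, followed the same course. Its counts were 1482 and 1481 for leaf against 22675 and 18199 for protoplasts, again with no overlap. From 26.1 ± 0.7 CPM it rose to 610.3 ± 2.9 CPM (n = 2), with a log2 fold change of 4.55 ± 0.06 (SE; edgeR, adjusted p = 1.35e-15).

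ZAT18, a factor that promotes drought tolerance, was nearly without counts in leaf. It had 0 and 3 counts in the leaf libraries and 17839 and 13581 in the protoplast libraries. With a leaf total of 3 counts, the ratio of protoplast to leaf was 17745, with an exact 95% interval of 6072 to 86053 that covers counting error only. Its fitted log2 fold change was the 4th highest of the 20200 genes tested (edgeR, adjusted p = 7.59e-16), though at so few leaf counts the fitted size depends on the prior count. Without leaf replicate 1 that fitted value was 13.05, and without leaf replicate 2, which left 0 leaf counts, it was 17.22.

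ZAT11, which has been linked to programmed cell death and nickel tolerance, was likewise scarce in leaf. It had 11 and 3 leaf counts against 560 and 389 protoplast counts. It rose from 0.125 ± 0.103 to 14.1 ± 1.5 CPM (n = 2), with a log2 fold change of 6.80 ± 0.24 (SE; edgeR, adjusted p = 3.99e-11). The leaf libraries set this size, since the log2 fold change was 7.99 without leaf replicate 1 and 6.13 without leaf replicate 2.

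ZAT7, a repressor whose EAR motif has been tied to salinity tolerance, and ZAT8 lie near each other on chromosome 3 at chr3:16925881-16926883 and chr3:16922514-16923299 of TAIR10.1, both on the minus strand. ZAT7 had 52 and 66 leaf counts against 1049 and 911 protoplast counts, and rose from 1.04 ± 0.15 to 29.4 ± 1.5 CPM (n = 2). ZAT8 had 21 and 37 leaf counts against 618 and 612 protoplast counts, and rose from 0.509 ± 0.187 to 18.6 ± 2.7 CPM (n = 2). The log2 fold changes were 4.82 ± 0.11 for ZAT7 and 5.17 ± 0.18 for ZAT8 (SE; edgeR, adjusted p = 5.63e-13 and 3.48e-11). Of the counts of the pair, ZAT7 held 71.2% and 64.1% in leaf and 62.9% and 59.8% in protoplasts, with exact 95% intervals of 59.5% to 81.2% and 54.0% to 73.3% in leaf and 60.6% to 65.3% and 57.3% to 62.3% in protoplasts. These intervals cover counting error only, and no test compared the shares between groups. The coding sequences were 88.2% identical, and the longest run of bases shared by both annotated transcripts was 44, shorter than the reads of 150 bases. The treatment of reads that fit both genes is not stated in these sources, so the division between them is uncertain.

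The AZF genes rose less. AZF1 and AZF2 encode repressors known for induction by salt and, for AZF2, by abscisic acid. AZF1 had 72 and 107 leaf counts against 302 and 254 protoplast counts, and rose from 1.57 ± 0.40 to 8.32 ± 0.24 CPM (n = 2), with a log2 fold change of 2.40 ± 0.16 (SE; edgeR, adjusted p = 2.1e-08). AZF2 had 1484 and 1640 leaf counts against 4667 and 3709 protoplast counts, and rose from 27.5 ± 1.3 to 125.0 ± 1.5 CPM (n = 2), with a log2 fold change of 2.18 ± 0.06 (SE; edgeR, adjusted p = 1.38e-12). Both log2 fold changes lay below those of every ZAT gene that rose, a difference that was not tested.

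ZAT5 alone of the 10 genes fell. It had 1833 and 1894 leaf counts against 984 and 863 protoplast counts. On the CPM scale it went from 32.86 ± 0.05 to 27.7 ± 1.6 (n = 2), a log2 fold change of -0.25 ± 0.06 (SE; edgeR, adjusted p = 0.00315). Both protoplast values, 26.6 and 28.8 CPM, were below both leaf values, 32.9 and 32.8 CPM. The fall is small, since the median of all genes was -0.04 and 30.9% of the genes tested were called lower with a log2 fold change of -0.5 or below. It depended on scaling in its size, from -0.17 with scaling to reference genes to -1.05 with library size only, where the median of all genes was -0.85. Relative to the median of all genes it was -0.21 with TMM factors, which another scaling factor cannot change. That gap was -0.30 without a filter and with DESeq2, and -0.13 without protoplast replicate 1.

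**Figure D2:**
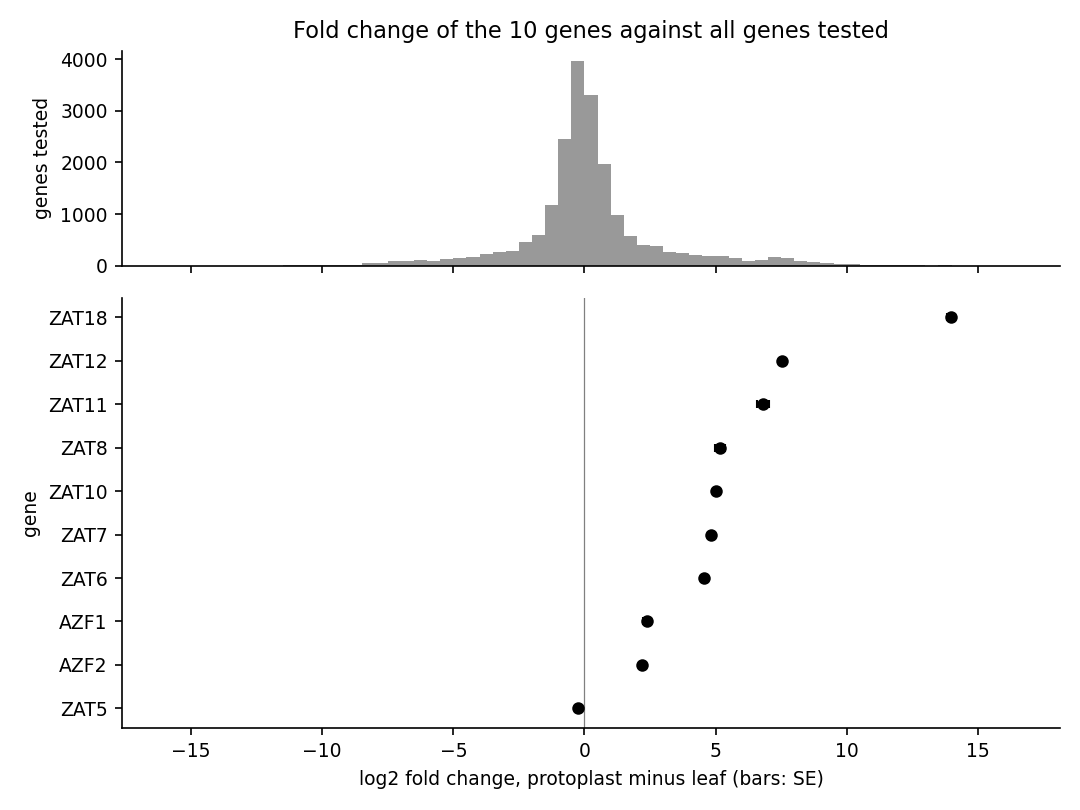
Upper panel, the number of tested genes by log2 fold change (protoplast minus leaf); lower panel, the log2 fold change of each of the 10 genes with its SE as a bar. ZAT18 lies at the far right at 13.97, the other 8 genes that rose lie between 2.18 and 7.55, and ZAT5 lies at -0.25 near the peak of the distribution.

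The order of the genes changed between leaf and protoplast. Levels are compared between genes as CPM per kilobase of annotated transcript. In leaf, ZAT5 with 22.96 ± 0.03 and ZAT10 with 22.9 ± 1.3 were at the top and could not be separated beyond their spread (SD, n = 2). ZAT6 with 20.0 ± 0.5 and AZF2 with 19.7 ± 0.9 came next and overlapped each other. These 4 genes were followed by ZAT12 with 6.64 ± 0.18, while AZF1, ZAT7, ZAT8, ZAT11 and ZAT18 were each at or below 1.11 CPM per kilobase. AZF1 overlapped ZAT7, and ZAT11 overlapped ZAT18. In protoplasts ZAT12 led with 1243.6 ± 41.1, followed by ZAT10 with 750.7 ± 8.2, ZAT18 with 582.6 ± 24.5 and ZAT6 with 467.7 ± 2.2 (CPM per kilobase, n = 2). AZF2 stood at 89.7 ± 1.0, and the other 5 genes lay between 5.88 and 29.3 CPM per kilobase. In the protoplast order, ZAT8 with 23.6 ± 3.4 and ZAT5 with 19.4 ± 1.1 overlapped within 1 SD, though not in their library values, and no other neighbours overlapped. ZAT5, among the top 2 in leaf, was 8th in protoplasts, and ZAT18, among the lowest 2 in leaf, was 3rd.

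**Figure D3:**
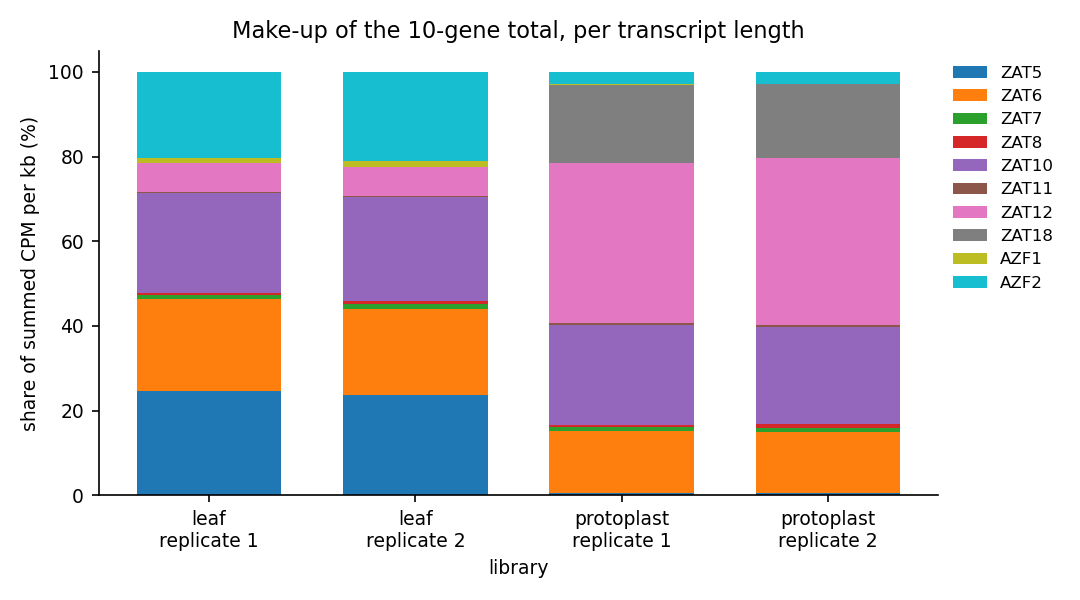
Share of each gene in the summed CPM per kilobase of transcript of the 10 genes, as a percentage, with 1 bar per library. ZAT5, ZAT6, ZAT10 and AZF2 make up most of the leaf bars, while ZAT12 takes 38.5% and ZAT18 18.1% of the total on average in protoplasts.

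The share of ZAT12 in this total went from 6.97% ± 0.01 in leaf to 38.5% ± 1.2 in protoplasts (SD, n = 2). ZAT10 kept a near-equal share, 24.1% ± 0.8 in leaf and 23.3% ± 0.3 in protoplasts, while ZAT5 went from 24.1% ± 0.7 to 0.600% ± 0.033. AZF2 went from 20.7% ± 0.4 to 2.78% ± 0.04.

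The sequence just upstream of the genes was scanned because 9 of them rose together. The 250 bases before the annotated start are printed for ZAT12, highest in protoplasts, for ZAT18, with the largest rise, for the neighbours ZAT7 and ZAT8, and for ZAT5, which fell. Capitals mark every match, on either strand, to the W-box TTGAC, the CAMTA core CGCGT, the abscisic acid response core ACGTG, the heat shock element GAANNTTC and the DRE core CCGAC. Matches can share bases, as where ACGCGT reads as the CAMTA core on both strands in ZAT7 and ZAT8, and in ZAT12 a W-box is followed directly by the same site on the other strand.
ZAT12 (chr5:24102564-24102813, plus strand): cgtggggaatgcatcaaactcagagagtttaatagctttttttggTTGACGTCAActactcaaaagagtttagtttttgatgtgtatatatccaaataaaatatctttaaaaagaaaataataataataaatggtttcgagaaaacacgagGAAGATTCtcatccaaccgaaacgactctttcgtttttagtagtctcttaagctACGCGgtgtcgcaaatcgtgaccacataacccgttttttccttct
ZAT18 (chr3:19875125-19875374, plus strand): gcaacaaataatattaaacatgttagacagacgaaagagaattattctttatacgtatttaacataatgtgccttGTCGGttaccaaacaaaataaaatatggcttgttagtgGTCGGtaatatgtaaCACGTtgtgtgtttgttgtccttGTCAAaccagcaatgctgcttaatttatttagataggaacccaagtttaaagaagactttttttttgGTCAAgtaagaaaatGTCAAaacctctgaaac
ZAT7 (chr3:16926884-16927133, minus strand): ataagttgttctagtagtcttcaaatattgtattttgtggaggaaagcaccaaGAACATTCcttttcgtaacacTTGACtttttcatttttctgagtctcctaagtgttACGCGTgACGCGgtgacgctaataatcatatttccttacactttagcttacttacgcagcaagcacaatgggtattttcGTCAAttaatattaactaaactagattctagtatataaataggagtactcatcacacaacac
ZAT8 (chr3:16923300-16923549, minus strand): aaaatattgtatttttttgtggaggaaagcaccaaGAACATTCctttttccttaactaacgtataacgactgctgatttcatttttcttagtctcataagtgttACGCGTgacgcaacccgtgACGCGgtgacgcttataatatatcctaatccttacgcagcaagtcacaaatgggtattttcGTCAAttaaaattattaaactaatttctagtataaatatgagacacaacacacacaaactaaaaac
ZAT5 (chr2:12023690-12023939, plus strand): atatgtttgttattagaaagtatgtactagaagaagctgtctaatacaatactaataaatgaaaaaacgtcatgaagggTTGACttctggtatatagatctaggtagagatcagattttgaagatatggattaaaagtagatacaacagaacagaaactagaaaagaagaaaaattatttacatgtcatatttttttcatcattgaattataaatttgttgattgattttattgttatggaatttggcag
A W-box core, the kind of site WRKY factors bind, was found upstream of 9 of the 10 genes, all but ZAT6, and in 44.9% of the 27443 windows of protein-coding genes. The CAMTA core, read by calmodulin-binding CAMTA factors, was found in 3 of the 10, namely ZAT7, ZAT8 and ZAT12, and in 6.87% of all windows. The heat shock element was found in 5 of the 10, ZAT6, ZAT7, ZAT8, ZAT11 and ZAT12, and in 9.55% of all windows. ZAT10 and ZAT18 held the abscisic acid response core, which 22.9% of all windows held, and ZAT6, ZAT10, ZAT18 and AZF2 held the DRE core, which 12% held. The ZAT5 window held 1 W-box and no other match, and so did the window of AZF1, which rose. ZAT7 and ZAT8 are close relatives that lie near each other, so they are not separate cases. A match is a string of letters in this window and not a tested site.

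Regulators known to act on ZAT genes or their proteins were also mostly higher in protoplasts. Of 13 listed genes for kinases, heat shock factors, CAMTA factors and an oxidase, 12 rose, 0 fell and CAMTA1 was not called. Among all genes tested, 39.8% were called higher. The median log2 fold change of the 13 was 1.42, against -0.04 for all genes. With library size only, 4 of the 13 were instead called lower, as were 14057 of the 20200 genes tested. OXI1, a kinase activated by oxidative signals, rose from 0.337 ± 0.133 to 275.4 ± 15.1 CPM (n = 2), with a log2 fold change of 9.67 ± 0.12 (SE). RBOHD, the oxidase that makes apoplastic superoxide, rose by 2.83 ± 0.05 and MPK3, a stress-activated kinase, by 2.53 ± 0.05 on the log2 scale. HSFA4A, a heat shock factor placed upstream of ZAT12 in oxidative stress, rose by 2.21 ± 0.07. MPK6, which phosphorylates ZAT6 and ZAT10, rose by 0.27 ± 0.06 with TMM factors, but its log2 fold change was -0.06 under upper-quartile scaling and -0.54 under library size alone. CAMTA3, a calmodulin-binding factor of cold and defence responses, rose by 0.36 ± 0.06, but upper-quartile factors ended this call (edgeR, adjusted p = 0.575) and library size only gave -0.44.

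Of 8 corepressors that work with EAR motifs, 5 rose and 0 fell with TMM factors, whereas with library size only 1 rose and 6 fell. Over all genes tested, 39.8% were called higher with TMM factors. With library size only, 4326 of the 20200 genes tested were called higher and 14057 lower, so the falls there are shared by most genes. The median log2 fold change of the 8 was 0.15, against -0.04 for all genes. TPR3 (AT5G27030), a TOPLESS-related corepressor, stood apart with 345 and 385 leaf counts against 15111 and 11502 protoplast counts. It rose from 6.43 ± 0.34 to 396.3 ± 16.7 CPM (n = 2), with a log2 fold change of 5.94 ± 0.07 (SE; edgeR, adjusted p = 8.87e-16). TPL, TOPLESS itself, was at 241.3 ± 6.9 CPM in leaf (n = 2) against 265.5 ± 10.08 for protoplasts. The log2 fold change of 0.14 ± 0.05 became -0.19 under upper-quartile scaling and -0.67 under library size alone. The TPL call also ended when leaf replicate 1 was left out (log2 fold change 0.10; edgeR, adjusted p = 0.204) and likewise for protoplast replicate 1 (0.084; adjusted p = 0.212). It ended as well without a filter (0.10; adjusted p = 0.0919) and with the replicate block (0.14; adjusted p = 0.0838), and in each of these 4 settings 3 of the 8 corepressors were called higher.

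Genes that other work has placed under the control of these factors went mostly up. Among 20 listed targets, 17 rose, 1 fell and 2 were not called, with a median log2 fold change of 1.81. Of all genes tested, 39.8% were called higher, and the median of all genes was -0.04. The cold regulators CBF1, CBF2 and CBF3, which ZAT12 is reported to restrain, rose by 4.35 ± 0.08, 3.45 ± 0.06 and 2.39 ± 0.12 on the log2 scale. These CBF genes are related neighbours whose sequences were not compared here, so the division of counts among them is uncertain. APX1, the cytosolic ascorbate peroxidase, rose from 185.7 ± 6.7 to 688.1 ± 12.8 CPM (n = 2), and WRKY25, a factor of oxidative and heat stress, rose by 4.03 ± 0.06. RD29A, a dehydration gene that ZAT10 can repress, rose from 45.8 ± 0.4 to 151.1 ± 9.1 CPM (n = 2). PCS2, a phytochelatin synthase with a leaf total of 3 counts, gave a ratio of 251, for which counting error alone allows 85.3 to 1221 at 95%. GSH2, glutathione synthetase, fell by 0.38 ± 0.07 on the log2 scale. Upper-quartile scaling called 3 of the 20 lower, and library size alone 5. Of the 20200 genes tested, the same settings called 11047 and 14057 lower.

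Relatives outside the 10 were scarce in every library. Of 11 further zinc finger genes of the same type, 6 had too few counts to be tested, 3 fell, 0 rose and 2 were not called. Among all genes tested, 39.8% were called higher and 40.7% lower. Without a filter and with DESeq2, 2 of the 11 were called higher, namely DAZ1 and DAZ2, genes for zinc finger proteins of the male germ line. DAZ1 had 0 counts in both leaf libraries and 4 in each protoplast library, and was at least 2.26-fold higher with 3 counts taken for each leaf library. DAZ2 had 0 counts in both leaf libraries and 5 in each protoplast library, and was at least 2.82-fold higher on the same basis. No test compared these relatives with the 10 genes. Their summed level was 3.23 and 3.07 CPM in the leaf libraries and 1.35 and 1.54 CPM in the protoplast libraries. AT3G60580 had 84 counts in leaf against 1 in protoplasts, a ratio of 49.6 for which counting error alone allows 8.66 to 1981 at 95%, and AT5G03510 fell by 3.38 ± 0.46 on the log2 scale. AZF3, the third gene of the AZF name, had 14 and 16 leaf counts against 7 and 2 protoplast counts, with a log2 fold change of -0.96 ± 0.54 that was called lower under upper-quartile scaling (edgeR, adjusted p = 0.04) and under library size alone (0.00578). The AZF3 value rests on few counts, as it was -1.96 when protoplast replicate 1 was left out and -0.48 when protoplast replicate 2 was, neither of them called. AT2G28710, with 25 and 33 leaf counts against 26 and 30 protoplast counts, had a log2 fold change of 0.71 ± 0.31, which passed the threshold with RLE factors (adjusted p = 0.0425), with scaling to reference genes (adjusted p = 0.0336) and in the absence of protoplast replicate 1 (adjusted p = 0.0429), and was -0.09 with library size only. AT3G46070, the neighbour of ZAT7 and ZAT8 with coding identities of 74.5% and 77.2% to them, had 0 counts in both leaf libraries and 2 and 1 in the protoplast libraries.

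**Figure D4:**
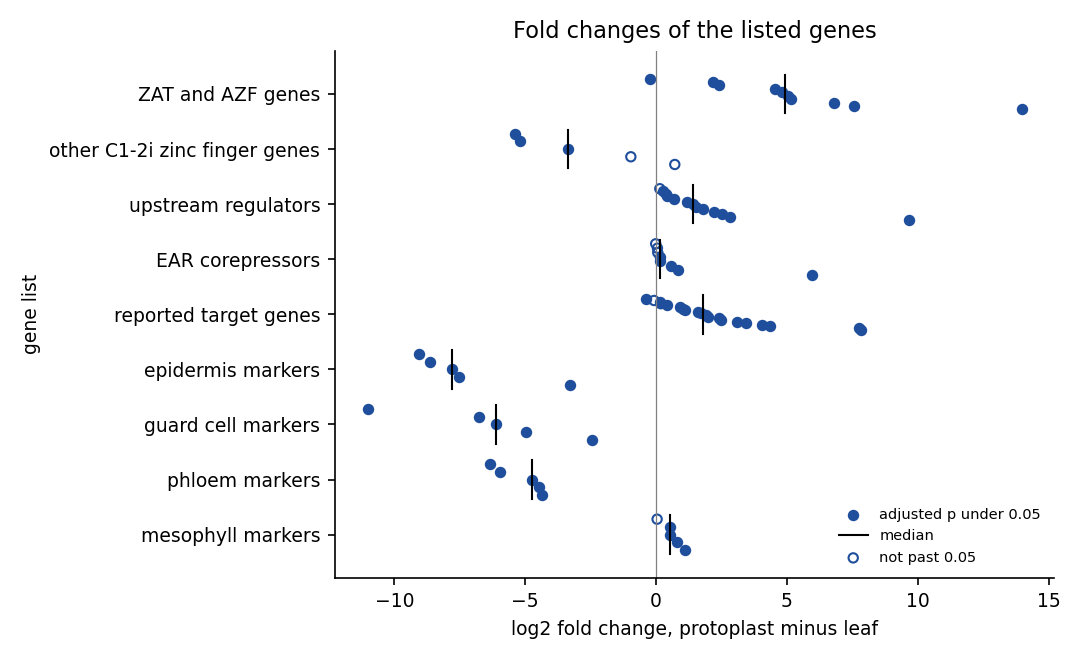
Log2 fold change (protoplast minus leaf) of each tested gene of each list, filled where the adjusted p was under 0.05 and open where not, with the median as a black line. The ZAT and AZF genes lie to the right with a median of 4.92, and the epidermis, guard cell and phloem markers lie to the left.

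The protoplast libraries also differed in the RNA levels of cell type markers. Epidermis markers summed to 738.8 and 753.7 CPM in leaf and 5.94 and 5.65 CPM in protoplasts, and of 6 markers 5 fell and PDF1, at 0 counts in both protoplast libraries, was not tested. Guard cell markers, of which all 5 fell, summed to 27.2 CPM in each leaf library and 2.13 and 2.27 CPM in protoplasts, with ALMT12 at 0 counts in both protoplast libraries. All 5 phloem markers fell, from sums of 846.0 and 890.3 to 25.1 CPM in each protoplast library. Of 5 mesophyll markers 4 rose and 0 fell with TMM factors, from sums of 32599 and 32990 to 47794 and 48287 CPM, and with library size only 1 rose and 3 fell. Among all genes tested, 39.8% were called higher and 40.7% lower with TMM factors. With library size only, 4326 of the 20200 genes tested were called higher and 14057 lower. The median log2 fold change of the mesophyll markers was 0.52, against 4.92 for the 10 zinc finger genes. In bulk RNA, fewer cells of a type and less RNA per cell cannot be told apart, and the part of these shifts in the zinc finger results was not tested.

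Among 5451 other named genes with at least 10 CPM in a group, those with profiles most like ZAT18 over the 4 libraries were MYB108, ABR1 and MAPKKK21. Likeness is the distance between log2 CPM values, each gene centred on its own mean, and it was 0.588, 0.757 and 1.14. MYB108, a MYB factor of wounding and senescence, had 1 and 2 leaf counts against 16667 and 12519 protoplast counts. ABR1, an ERF factor that represses abscisic acid responses, had 7 and 18 leaf counts against 38806 and 31110 protoplast counts. MAPKKK21, a kinase gene, had 9 and 10 leaf counts against 29267 and 26479 protoplast counts. For ZAT5 the closest were SVP, a repressor of flowering, COL3, a B-box factor, and EIF3G1, a translation initiation subunit, at distances of 0.0101, 0.0171 and 0.0178. Their log2 fold changes were -0.25, -0.26 and -0.25. With 4 libraries in 2 groups, such likeness mostly restates the fold change.

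**Figure D5:**
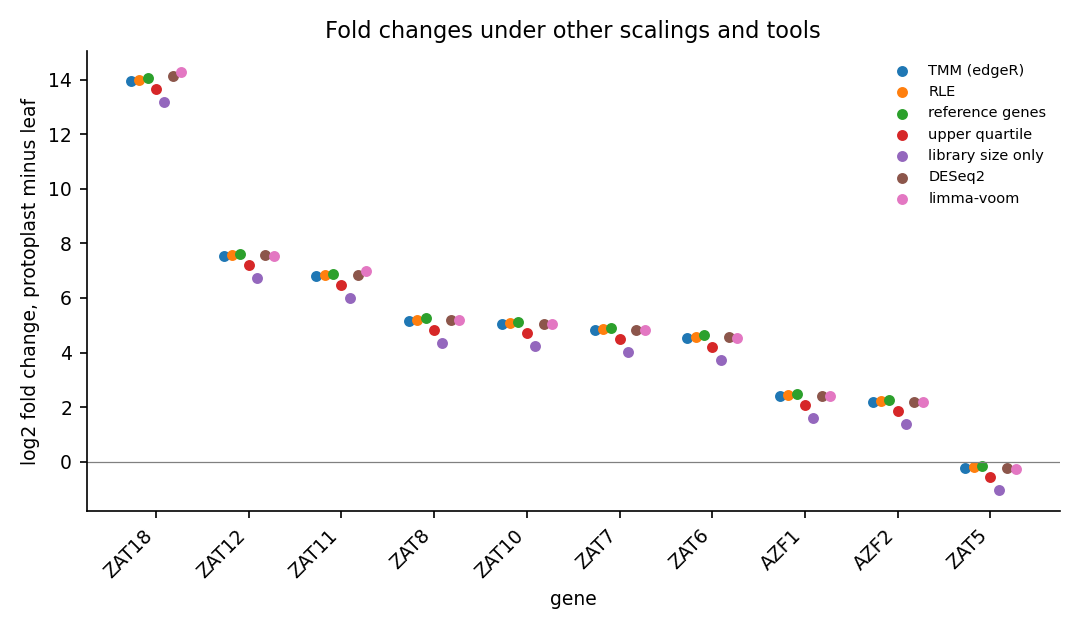
Log2 fold change (protoplast minus leaf) of each of the 10 genes, 1 colour per scaling or tool. Library size only gives the lowest values for every gene, and no gene changes side of 0.

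The libraries were deep, with total counts from 39958035 to 48503141, and 1 count of a gene was worth 0.0173 to 0.0334 CPM. The smallest p of an exact permutation test with 2 libraries in each group is 0.333, and the calls therefore use the spread shared across genes.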

How the data were processed

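The deposited table holds raw whole-number counts per locus, which the authors did not normalize, with 1 column per library. Per the submitters' processing notes STAR and DESeq were used, with no versions. Not given in the sources used here: genome build, annotation, counting tool and whether counting used strand. Per the labels' protocols the library kit was directional. The authors' own comparison table was not used here.

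The test was edgeR's quasi-likelihood test (version 4.0.16, run under R 4.3.3). The model held group alone, with TMM factors (1.32 for each leaf library, 0.764 and 0.749 for protoplasts) and filterByExpr, which left 20200 of 24904 loci. Benjamini-Hochberg adjustment ran over these loci, and a gene was called at an adjusted p under 0.05. Each log2 fold change is protoplast minus leaf, and SE is their size divided by the square root of F. Ratios with a group total of 1 to 3 counts have exact 95% intervals, which cover counting error only. The fit was also tried on simulated data with 200 genes changed, and the outcome is not given here. Such data cannot tell how much of the spread between libraries is biological. Alternatives used other scalings, no filter, DESeq2 1.42.0, limma-voom (limma 3.58.1), a replicate block and the loss of each library. The reference genes were PP2AA3, UBC21, ACT2, GAPC2, AT2G28390, AT4G34270, AT4G26410 and AT5G60390, and the scaling used their summed counts. Of these 8 genes, 4 were called higher and 1 lower with TMM factors.

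The members, lists and tests were chosen with earlier results of these data known. Named genes are the 10 members, the called gene at each end of a list and the 3 nearest profiles of the members with the highest and lowest fold change; any other listed gene with values was chosen after its values were seen. No gene of the zinc finger list was dropped, since each is annotated as a C2H2 zinc finger.

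All 24651 nuclear loci of the table were matched by locus tag to RefSeq's annotation of TAIR10.1. Sequences and coordinates are RefSeq's for TAIR10.1, read by locus tag, and no coordinate comes from the count table. Identity is from global alignments made with Biopython 1.88.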

Additional observations from a re-analysis of the deposited data

How the results depend on the processing

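Each of the 10 genes kept its direction and its call under all 12 alternatives, 120 values in all, so that 9 were called higher and 1 lower each time. The largest adjusted p was 0.0418, for ZAT5, and 1.93e-06 among the other 9. Library size only moved all folds by more than 1.5 times, with a median log2 fold change of the 10 genes of 4.12 in place of 4.92. Over all genes it gave 4326 called higher and 14057 lower, in place of 8036 and 8231, and 23.5% of calls higher in place of 49.4%; upper-quartile factors gave 35.9%. Leaving out 1 library gave 7537 to 7957 higher and 7700 to 7928 lower. With library size only, 4 upstream regulators fell, 1 corepressor rose and 6 fell, and 5 targets fell. With upper-quartile factors these were 1 regulator, 3 corepressors up and 5 down, and 3 targets. Corepressors called higher numbered 3 without a filter, 3 with the replicate block and 3 to 5 without 1 library. Of the other zinc finger genes, 1 rose with RLE factors and with reference gene scaling, 2 (DAZ1 and DAZ2) without a filter and with DESeq2, and 0 to 1 without 1 library. Among the genes named, log2 fold changes reversed for MPK6 (-0.058 with upper-quartile factors, -0.54 with library size only), TPL (-0.19 and -0.67 in the same order) and, with library size only, CAMTA3 (-0.44), RCA (-0.29) and AT2G28710 (-0.088). Counting unnamed genes too, library size only changed the sign of 5 of 13 regulators, 5 of 8 corepressors, 3 of 20 targets and 1 of 5 relatives; upper-quartile factors did so for 2, 4, 2 and 0. The cause was not tested. Whether leaf and protoplast libraries of the same replicate number share plants or a day is not told. The replicate 1 minus 2 differences of leaf and protoplast correlated with r = -0.0793 over 20200 genes, which cannot settle a pairing. With the replicate block, 7782 genes were called higher and 7868 lower, and 9 and 1 of the 10 genes. Depth limits the size of the ZAT18 and ZAT11 changes, which rest on leaf totals of 3 and 14 counts.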
